A study of Mus musculus with 48 samples.

Results

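The comparison of infarcted with sham-operated P10 hearts at day 7 rests on 12 H3K27ac libraries, 6 from MI and 6 from sham hearts, of the 48 labelled samples, 42 of which had a file. The libraries were chosen by their titles, P10_MI_7D and P10_Sham_7D. In each of these 12 libraries the cells came from C57BL/6 mice operated on at postnatal day 10 and killed 7 days later. MI was made by ligating the left anterior descending coronary artery, and sham hearts had the operation without ligation. Each heart was cut into the infarct zone (IZ), the border zone (BZ) and the remote zone (RZ), and the sham libraries carry the same zone names. Each arm therefore had 2 libraries per zone, numbered 1 and 2. Per the study's methods, a library pooled 1 zone of several hearts, the sex of the pups was not determined, and live CD45+F4/80+ cells were sorted, which are macrophages and monocytes. The labels give every sample the treatment myocardial infarction, so the arm was read from the title. Later comparisons add 12 libraries of mice operated on at postnatal day 10 and killed 3 days later. They also add 12 libraries of mice operated on at postnatal day 1 (P1) and killed 7 days later, MI and sham in both sets.

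H3K27ac is an acetyl mark that p300 and CBP place on histone H3 at active promoters and enhancers, and histone deacetylases remove it. In CoBATCH, a transposase joined to protein A is led by the antibody to marked chromatin, cuts there and leaves a sequencing adapter. The mouse heart regenerates when it is injured just after birth and loses this ability within the first postnatal days, so an injury at P10 heals by scar. After an infarct, monocytes and inflammatory macrophages enter the tissue, and they later give way to cells that clear debris and support the scar. The comparison asks which promoters and enhancers of the sorted cells still carried another level of the mark a week after the infarct. Where the mark around a gene is higher in a library of pooled cells, more cells of a type and more mark per cell cannot be told apart.

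The 12 libraries held 244982 to 1008148 distinct read pairs. The level of a gene is the number of pairs in H3K27ac regions inside its window, from 50 kb before the gene to 30 kb behind it, as CPM of all pairs in regions of the library with TMM scaling. Numbers 1 and 2 were sequenced on different flow cells, and MI and sham of a number shared theirs, so the number was kept as a block. Fragments were 196 to 203 bp at the median in the libraries numbered 1 and 267 to 302 bp in those numbered 2. Over the 10321 windows tested, 2593 (25.1%) differed between the numbers (limma, adjusted p under 0.05). The MI IZ library numbered 2 and the sham RZ library numbered 2 stood farthest from the others in level across windows. Their Pearson correlations with the other libraries, given across windows as a description, ran from 0.835 to 0.889, and those among the remaining libraries from 0.867 to 0.974. They also held the fewest pairs in regions (116966 and 115224). No 2 libraries shared more than 0.0571% of their fragments.

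The genes of the sorting gate carried the mark in every library. Windows of the gate and shared macrophage genes held 4400 to 6060 CPM in MI libraries and 4900 to 5470 in sham libraries, summed over 8 genes. Ptprc, which encodes CD45, had levels of 392, 464 and 602 (lowest, median and highest of 6) in MI and 330, 473 and 606 in sham (log2 difference 0.09, SE 0.10). Adgre1, which encodes F4/80, had 303, 461 and 519 in MI and 381, 443 and 550 in sham (log2 difference -0.05, SE 0.11). Both arms overlapped throughout for the genes of the sorting gate. The fibroblast list reached 7.4 to 23.2 in MI and 6.24 to 24 in sham, and 5 of its 6 markers, Col1a2, Col3a1, Pdgfra, Postn and Dcn, had no pair in a region in any library. Of the cardiomyocyte list, which summed to 466 to 563 in MI and 480 to 618 in sham, Tnnt2, Actc1 and Ryr2 were at 0, and its only tested member was Tnni3. The window of Tnni3 had 422 to 492 in MI and 381 to 564 in sham, close to that of Adgre1. Spp1 and Chil3, of the macrophage and monocyte lists, had no pair in a region, so window levels did not follow the cell type throughout. The endothelial list summed to 766 to 1070 in MI and 711 to 966 in sham. Its only tested member was Pecam1, which leukocytes also carry.

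No gene window passed the test between MI and sham. Of 21911 windows, 10321 averaged 10 pairs or more over the libraries, and 0 of them (0.0%) reached an adjusted p under 0.05 in the fit with limma, where the smallest adjusted p was 0.138. An unadjusted p under 0.05 was found for 868 windows (8.41%), of which 490 (4.75%) were higher and 378 (3.66%) lower in MI. The differences were small. The median size of the log2 difference was 0.11, 97.9% of the windows lay within 0.5, and 4 windows exceeded 1. The levels of the 6 MI libraries and those of the 6 sham libraries did not overlap in 15 windows (0.145%).

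These counts depend on how the libraries of a number enter the fit. The IZ, BZ and RZ libraries of an arm that carry the same number entered as 1 pool. Each heart was cut into all 3 zones, so these libraries may share hearts, though no source ties the numbers to hearts. The estimated correlation of libraries within these 4 pools was negative (-0.133). It narrows the standard errors to a median of 0.15 from 0.18 with zones as independent libraries, a fit that treats libraries that may share hearts as separate. With independent zones, 425 windows (4.12%) had an unadjusted p under 0.05 and 0 passed. Without the replicate number as a block, 69 (0.669%) did and 0 passed. Scaled to all distinct pairs rather than to pairs in regions, the median of all windows moved from 0.01 to -0.16, and 217 windows passed, 1 higher and 216 lower in MI. Counting all pairs of the window, 2415 of 15955 windows (15.1%) had an unadjusted p under 0.05, 745 higher and 1670 lower, the median was -0.07 and 3 passed. Small positive differences, such as those of Cd68 and Tyrobp below, change sign with both.

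The share of pairs in regions, which sets that shift, was 36.5%, 48.9% and 52.8% (lowest, median and highest) in MI and 40.1%, 53.7% and 60.4% in sham. It was lower in MI in 4 of the 6 comparisons of libraries with the same zone and number. The mean difference was -5.79 percentage points (exact permutation of signs, two-sided p = 0.125, adjusted 0.26 over 5 library measures). The smallest p this test allows is 0.0312. The 6 comparisons are taken as independent in it, which the sources do not state, and libraries of a number may come from the same hearts. The 4 other measures were the share of region pairs at promoters (mean 69.6% in MI and 70.0% in sham, p = 0.219), the median fragment length (236 and 247 bp, p = 0.312), the share on chromosome X (2.53% and 2.28%, p = 0.156) and the share on chromosome Y (0.00866% and 0.0176%, p = 0.0625), all by the same exact test. Repeated lines made up 18.2% to 21.9% of the MI libraries numbered 2 and 9.67% to 15.3% of the sham libraries numbered 2, and they were dropped. The part of these library measures in the gene results was not tested.

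Among the windows higher in MI, the smallest p belonged to Galnt6, an enzyme that begins mucin-type O-glycosylation. Its level was 325 and 573 in the IZ, 455 and 386 in the BZ and 428 and 408 in the RZ of MI hearts, in the order of numbers 1 and 2. In sham hearts it was 294 and 387 in the IZ, 350 and 250 in the BZ and 288 and 207 in the RZ. MI was higher in 6 of 6 matched comparisons, by 0.52 on the log2 scale (SE 0.12, limma adjusted p = 0.142, unadjusted p = 4.34e-05, and 0.00041 with independent zones), while the arms overlapped. Galnt6 lies at chr15:100691813-100729376 (GRCm38). The flank behind the gene takes in nearly all of the region over Bin2 and Cela1 described later, which had a mean of 67.9 pairs per library beside 81.1 for the whole window, so the 2 are not separate results.

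Wdr25, which encodes a WD-repeat protein, separated the arms without overlap. Its levels were 59.2, 88.1 and 99.7 in MI (lowest, median and highest) and 25.4, 44.9 and 55.8 in sham, a log2 difference of 0.98 (SE 0.24, limma adjusted p = 0.142, unadjusted p = 0.000678 with independent zones) on a mean of 14.7 pairs per library. Counting all pairs of the window, in regions or not, the difference was 0.17. Anxa11, an annexin that binds phospholipids in the presence of calcium, had 55.7, 122 and 178 in MI and 31.9, 59.5 and 88.8 in sham (log2 difference 0.87, SE 0.22, higher in 6 of 6, and 0.36 with all pairs). The unnamed gene 6430571L13Rik had 120.0, 167 and 183 in MI and 63.4, 98.1 and 128 in sham (0.73, SE 0.18, 6 of 6, and 0.34 with all pairs). The arms of both overlapped, since the highest sham library exceeded the lowest MI library. Tmem154, a transmembrane protein, followed with 0.69 (SE 0.18, 6 of 6, and 0.49 with all pairs), and Lhpp, a phosphatase that removes phosphate from histidine, with 0.43 (SE 0.11, 5 of 6, and 0.25 with all pairs). The unadjusted p of these 4 windows was 0.00073 to 0.00169 with independent zones.

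Sinhcaf led the windows lower in MI. It encodes a subunit of the Sin3 histone deacetylase complex. Its level in MI hearts was 29.6 and 23.2 in the IZ, 52.8 and 44.5 in the BZ and 47.6 and 25.9 in the RZ. In sham hearts it was 108 and 127 in the IZ, 60.2 and 112 in the BZ and 82.3 and 71.8 in the RZ. Every MI library lay below every sham library, with a log2 difference of -1.10 (SE 0.24, limma adjusted p = 0.138, unadjusted p = 1.34e-05, and 0.000197 with independent zones) on a mean of 13.8 pairs per library. The difference was -0.78 with all pairs of the window.

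The other windows lower in MI were of several kinds. Prpf38a, a splicing factor, had 0.0, 40.8 and 45.3 in MI and 38.1, 59.1 and 88.5 in sham (log2 difference -0.99, SE 0.25, and -0.61 with all pairs), with no pair in the MI IZ library numbered 2. Slc28a2, a nucleoside transporter, had 29.6, 53.6 and 84.1 in MI and 69.8, 86.3 and 150 in sham (-0.83, SE 0.21). Pilrb2, a receptor of the paired immunoglobulin-like type on myeloid cells, had 4.95, 37.8 and 73.3 in MI and 48.0, 68.9 and 101 in sham (-1.01, SE 0.27). Prpf38a and Slc28a2 were lower in all 6 matched comparisons and Pilrb2 in all but 1, and none had an adjusted p under 0.162 in limma. Dis3, a ribonuclease of the RNA exosome, differed by -0.83 (SE 0.23), and by -0.13 with all pairs of the window. Mpi, which interconverts mannose and fructose phosphates, differed by -0.36 (SE 0.10) at a level of 248, 452 and 523 in MI and 470.0, 563 and 602 in sham. The unadjusted p of these 5 windows was 0.00097 to 0.0055 with independent zones.

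**Figure D1:**
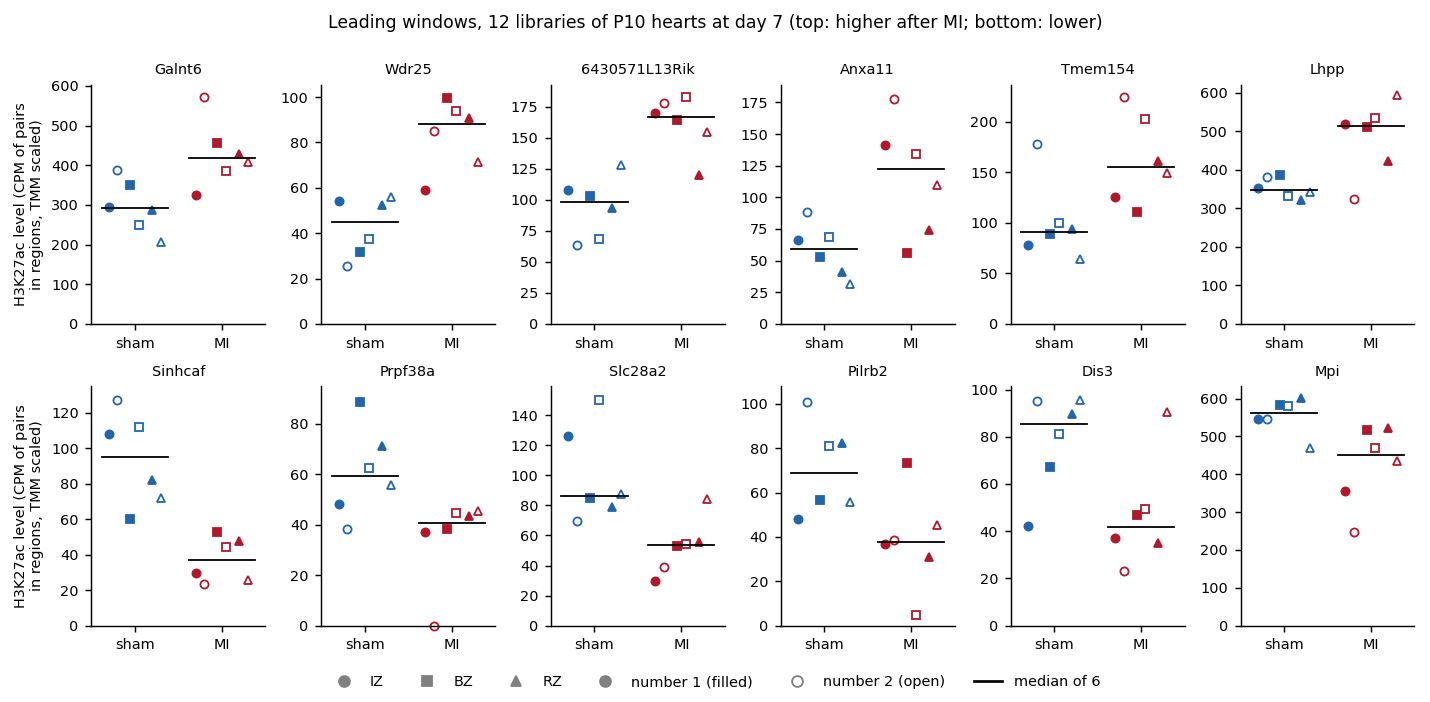
H3K27ac level (CPM of pairs in regions, TMM scaled, from 0) of the 12 leading windows in each of the 12 libraries, sham in blue and MI in red. Circles, squares and triangles are IZ, BZ and RZ, filled points number 1 and open points number 2, and the line is the median of 6. The arms are apart for Wdr25 and Sinhcaf and overlap for the 10 others.

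Regions gave the same answer as gene windows. Of 23079 regions, 12045 averaged 3 pairs or more over the libraries, 0 (0.0%) passed in limma, and the smallest adjusted p was 0.184. An unadjusted p under 0.05 was found for 1024 regions (8.5%), 521 (4.33%) higher and 503 (4.18%) lower in MI, and for 494 (4.1%) with independent zones. The arms did not overlap in 16 regions (0.133%). Among promoter regions, within 1000 bp of a transcription start, 283 were higher and 331 lower at that p, of 7515 tested (8.17% together). Among regions inside genes 148 were higher and 95 lower, of 2442 (9.95%), with a median log2 difference of 0.05 beside -0.01 at promoters. Intergenic regions had 90 higher and 77 lower of 2088 (8.0%).

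The leading regions were chosen by the same rule as the leading windows, so their counts of matched comparisons are a description too. The region with the smallest p among those higher in MI lies at chr2:164802501-164808000 over the promoters and exons of Acot8, a peroxisomal acyl-CoA thioesterase, and Zswim3. Its levels were 54.2, 94.0 and 116 in MI and 7.97, 44 and 84.0 in sham (log2 difference 1.05, SE 0.24, 6 of 6, limma adjusted p = 0.184). The region over Bin2 and Cela1 at chr15:100660001-100688500, whose pairs make up most of the window of Galnt6, had 288, 358 and 456 in MI and 175, 254 and 323 in sham (0.50, SE 0.12, 6 of 6). Bin2 encodes a membrane-bending protein of leukocytes. The region of Nceh1, a hydrolase of cholesterol esters, at chr3:27182501-27222500 had 418, 460.0 and 540.0 in MI and 271, 350.0 and 434 in sham (0.42, SE 0.10, 6 of 6). In each of these 3 regions the arms overlapped although every matched comparison had the higher level in MI. Of the 5 leading regions higher in MI, only the one over 9930022D16Rik and Amz2 at chr11:109411001-109427500 kept the arms apart, with 213 to 343 in MI and 112 to 210.0 in sham (0.56, SE 0.14). The region of Nfxl1 at chr5:72551501-72560500 had 92.8, 128 and 183 in MI and 44.4, 71.2 and 150 in sham (0.75, SE 0.19, 5 of 6). The unadjusted limma p of these 5 regions was 0.000293 to 0.00103 with independent zones.

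The 5 leading regions lower in MI were 1500 to 4000 bp long and held a mean of 3.33 to 10.3 pairs per library, against 5500 to 40000 bp and 15.9 to 92.3 pairs for the 5 higher in MI. The region at the promoter of Ccdc171 (chr4:83525001-83526500) had 0.0, 2.47 and 29.0 in MI and 22.4, 33.9 and 56.1 in sham (log2 difference -1.85, SE 0.43, limma adjusted p = 0.184) on a mean of 4.92 pairs per library. The region at the facing promoters of Entpd5, a nucleoside diphosphatase of the endoplasmic reticulum, and Bbof1 (chr12:84408001-84409500) had 0.0, 6.04 and 22.2 in MI and 12.5, 21.3 and 63.4 in sham (-1.84, SE 0.47). MI was the lower arm in all but 1 of the matched comparisons of both. An intergenic region at chr8:128035501-128039500, 319784 bp from the start of Nrp1, had 7.4, 14.1 and 34.6 in MI and 28.3, 46.0 and 55.8 in sham (-1.31, SE 0.34, lower in 6 of 6). The lowest sham library lay below the highest MI library in these 3 regions, so the arms overlapped. The promoter region of Sinhcaf at chr6:148944501-148947000 had 7.74, 26.6 and 44 in MI and 39.9, 64.1 and 114 in sham (-1.07, SE 0.28), and its pairs are part of the Sinhcaf window above. The region of Mfsd4b3 at chr10:39959501-39961000 had 0.0, 7.57 and 12.9 in MI and 12.5, 31.8 and 36.0 in sham (-1.67, SE 0.44). With independent zones the unadjusted limma p of these 5 regions was 0.000428 to 0.00172.

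The sequences around the most covered point of 4 of these regions are shown, those with the smallest p in each direction that had over 200 bases outside untranslated exons. They are in the GRCm38 genome on the forward strand, and capitals mark GGAA or its complement TTCC, the core that PU.1 and other ETS factors bind, TGANTCA, the letters bound by AP-1, and TTGCNNAA, letters of a C/EBP site.
Acot8 and Zswim3, chr2:164804883-164805097: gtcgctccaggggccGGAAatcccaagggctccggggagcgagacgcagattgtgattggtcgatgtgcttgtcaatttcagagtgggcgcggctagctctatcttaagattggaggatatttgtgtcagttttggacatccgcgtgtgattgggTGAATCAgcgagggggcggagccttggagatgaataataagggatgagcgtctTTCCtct
Bin2, chr15:100669250-100669493: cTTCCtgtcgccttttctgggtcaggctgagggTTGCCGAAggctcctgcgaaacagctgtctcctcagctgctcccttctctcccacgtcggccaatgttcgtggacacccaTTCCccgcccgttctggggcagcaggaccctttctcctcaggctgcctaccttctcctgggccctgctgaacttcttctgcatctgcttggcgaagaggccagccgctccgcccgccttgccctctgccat
Entpd5 and Bbof1, chr12:84408542-84408841: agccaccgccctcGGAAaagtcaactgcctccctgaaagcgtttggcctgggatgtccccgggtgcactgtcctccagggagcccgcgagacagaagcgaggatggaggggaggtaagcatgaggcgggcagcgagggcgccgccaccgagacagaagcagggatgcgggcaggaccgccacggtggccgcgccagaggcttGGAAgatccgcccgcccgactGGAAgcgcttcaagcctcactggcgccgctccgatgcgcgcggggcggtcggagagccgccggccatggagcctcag
Intergenic, chr8:128038943-128039242: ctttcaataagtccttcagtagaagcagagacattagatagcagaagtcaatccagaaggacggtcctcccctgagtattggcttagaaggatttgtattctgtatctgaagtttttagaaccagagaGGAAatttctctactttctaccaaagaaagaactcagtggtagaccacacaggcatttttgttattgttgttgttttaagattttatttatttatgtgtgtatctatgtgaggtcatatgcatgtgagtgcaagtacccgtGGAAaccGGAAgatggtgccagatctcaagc
The stretch by Acot8 holds 1 AP-1 match and 2 GGAA cores, that by Bin2 1 C/EBP match and 2 GGAA cores, and the other two hold 3 GGAA cores each. In windows of 300 bases over all 12045 tested regions, with both strands searched, GGAA was found in 96.1%, TGANTCA in 8.53% and TTGCNNAA in 8.88%. The GGAA core is therefore common to nearly every region, and a match in the letters is not a bound site.

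Genes of the MHC class II list, which present antigen to helper T cells, held the largest share of small p-values of any list. All 6 members were tested, 5 were higher in MI, and the median log2 difference was 0.28 beside 0.01 over all windows, of which 52.1% were higher. None passed, and 5 had an unadjusted p under 0.05 (4 higher and 1 lower) beside 8.41% of all windows, or 3 of 6 beside 4.12% with independent zones. With all pairs of the window the median was 0.05, H2-DMa and Cd74 changed sign and none had such a p. H2-Aa, an alpha chain of the class II molecule, had levels of 51.8, 88.7 and 132 in MI and 31.2, 39.9 and 77.9 in sham (log2 difference 0.79, SE 0.24, limma adjusted p = 0.375). MI was higher in 6 of 6 matched comparisons and the arms overlapped.

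H2-Eb1, a beta chain, had 66.6, 106 and 147 in MI and 31.2, 64.5 and 110.0 in sham (0.59, SE 0.21, 5 of 6). H2-Ab1, the beta chain that pairs with H2-Aa, had 66.6, 129 and 149 in MI and 68.6, 93.8 and 127 in sham (0.39, SE 0.18, 5 of 6). These 3 windows are not separate measurements, since all 188 pairs counted for H2-Aa also fell in the window of H2-Eb1 and 127 of them in that of H2-Ab1. H2-DMa, part of the complex that loads peptides, had 757, 849 and 964 in MI and 678, 783 and 812 in sham (0.17, SE 0.08). Cd74, the invariant chain, differed by 0.04 (SE 0.12). Ciita, the transactivator of the class II genes, went the other way, with 90.6, 136 and 161 in MI and 131, 176 and 219 in sham (-0.37, SE 0.15, lower in 6 of 6, limma adjusted p = 0.474). The unadjusted p under 0.05 held with independent zones for H2-Aa (0.00574), H2-Eb1 (0.0199) and Ciita (0.042) and not for H2-Ab1 (0.0745) and H2-DMa (0.0975).

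**Figure D2:**
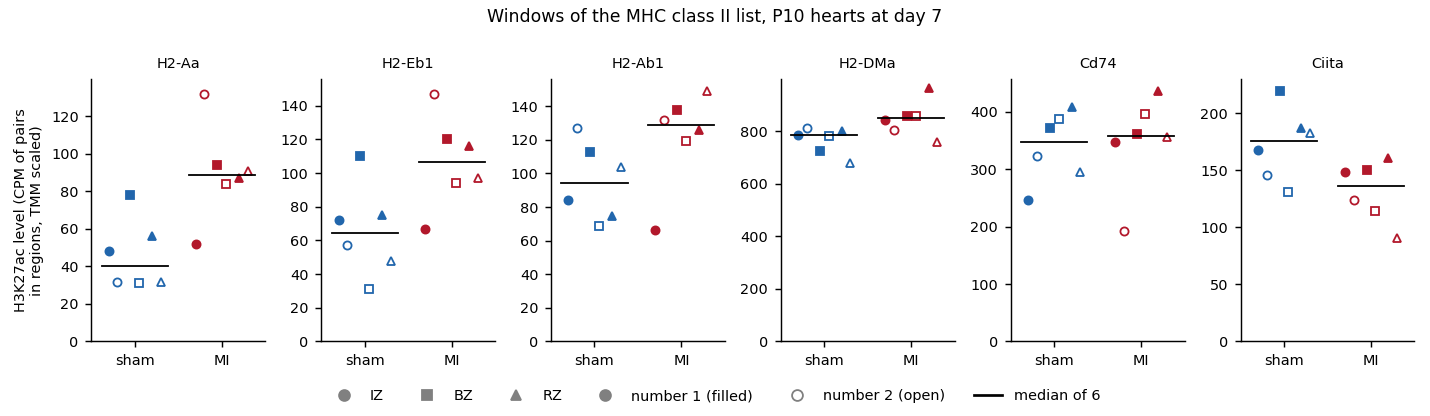
H3K27ac level (CPM of pairs in regions, TMM scaled, from 0) of the 6 MHC class II list windows in the 12 libraries, drawn as in the plot of the leading windows. The median of MI lies above that of sham for H2-Aa, H2-Eb1, H2-Ab1, H2-DMa and Cd74 and below it for Ciita, and the arms overlap in all 6 windows.

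Resident macrophage genes, which mark the self-renewing macrophages of the unhurt heart, had a median close to 0 in the counts in regions. Of 14 genes 13 were tested, 6 higher and 7 lower in MI, with a median log2 difference of -0.04, none passing and none with an unadjusted p under 0.05. C1qa, C1qb and C1qc, all among the higher, hold the same 1431 pairs and are not separate measurements. By zone the median was -0.32 in the IZ, 0.13 in the BZ and 0.11 in the RZ, beside -0.17, 0.03 and 0.12 over all windows. Mrc1, the mannose receptor, had 418, 736 and 964 in MI and 539, 630.0 and 774 in sham (0.08, SE 0.09). C1qa, a chain of complement C1q, had 379, 539 and 721 in MI and 412, 511 and 606 in sham (0.05, SE 0.10). The 2 arms overlapped for both, and the ends of the list were Cd163, a haemoglobin scavenger receptor, at -0.19 (SE 0.15) and Cbr2 at 0.19 (SE 0.12). Timd4 did not reach the minimum count. Counted over all pairs of the window the median was -0.18, beside -0.07 over all windows, and 4 of 14 members had an unadjusted p under 0.05, beside 15.1% of all windows, 1670 lower and 745 higher. All 4 were lower in MI, Folr2 (-0.26), Timd4 (-0.47), Cd163 (-0.35) and F13a1 (-0.26).

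Monocyte genes had medians close to 0. In the classical monocyte list Ccr2, the receptor through which monocytes leave the marrow, was at 0.03 (SE 0.10), with levels of 440.0, 470.0 and 692 in MI and 414, 506 and 662 in sham. Plac8 was at 0.02 (SE 0.16). Chil3 had no pair in a region in any library, and Ly6c2 and Vcan did not reach the minimum count, so 3 of 6 genes were tested. The 5 tested genes of the Ly6c-low monocyte list, the patrolling type, had a median of 0.01. They ran from Cd36, a scavenger receptor (-0.24, SE 0.13), to Treml4 (0.39, SE 0.21), with Nr4a1, the factor that patrolling monocytes depend on, at 0.03 (SE 0.09). None of these genes had an unadjusted p under 0.05. Counted over all pairs the medians of both lists were -0.19 and -0.16, beside -0.07 over all windows. Only Cd36 (-0.32, unadjusted p = 0.0118) had such a p, beside 15.1% of all windows.

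The list of Arg1 and lipid-associated macrophages had a median of 0.13 over 7 tested of 11 genes, with 4 higher and none passing. With all pairs of the window the median was -0.02 over 10 tested genes, beside -0.07 over all windows. None of the 10 then had an unadjusted p under 0.05. Lgals3, which encodes galectin-3, had 201, 260.0 and 364 in MI and 156, 220.0 and 235 in sham (log2 difference 0.38, SE 0.13, 5 of 6, unadjusted p = 0.00444, 0.0163 with independent zones, limma adjusted p = 0.412, and 0.22 with all pairs). Cd9 (0.22, SE 0.12, and 0.03 with all pairs) and Igf1 (0.26, SE 0.18, and -0.05 with all pairs) were next. Arg1 itself was at -0.05, and at 0.06 with all pairs. Spp1 had no pair in a region, and Gpnmb, Fabp5 and Lpl did not reach the minimum count. Of the S100a9 Ly6c monocyte list 5 of 9 genes were tested, with a median of 0.04. Lcn2, an iron-binding lipocalin of neutrophils and inflammatory monocytes, had 116, 172 and 194 in MI and 88.8, 122 and 150 in sham (0.41, SE 0.16, 6 of 6, unadjusted p = 0.0107, 0.0313 with independent zones, limma adjusted p = 0.466, and 0.28 with all pairs). Wfdc21 was at 0.34 (SE 0.19) and the chemokine genes Cxcl3 and Cxcl2 at -0.27 (SE 0.17) and 0.04 (SE 0.16). S100a8, S100a9 and Cxcr2 did not reach the minimum count, and Cd177 had no pair in a region. Over all pairs of the window 3 of 8 tested members of that list had an unadjusted p under 0.05, beside 15.1% of all windows, Lcn2 and Cxcr2 (0.52) higher and Cxcl3 (-0.30) lower in MI. The median of that list was then 0.14.

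Among transcription factors that define macrophages, 8 of 15 windows were higher and 7 lower, with a median of 0.00. Maf, which restrains the self-renewal of macrophages, had levels of 59.2, 122 and 220.0 in MI and 121, 146 and 213 in sham (log2 difference -0.46, SE 0.16, lower in all but 1 of the matched comparisons, unadjusted p = 0.00625, 0.0214 with independent zones, limma adjusted p = 0.412). Spi1, which encodes PU.1, had 665, 889 and 1030 in MI and 792, 1000 and 1350 in sham (-0.18, SE 0.09, unadjusted p = 0.0368, and 0.0736 with independent zones). The arms overlapped in both. Mef2c was at -0.18 (SE 0.09) and Cebpb at 0.02 (SE 0.08). Counted over all pairs Mef2c was at -0.43 (unadjusted p = 0.000188) and Spi1 at -0.37 (unadjusted p = 0.00163), and with Maf (-0.30) and Klf2 (-0.27) 4 of 15 members had such a p, all lower in MI, beside 15.1% of all windows, 1670 lower and 745 higher. The median of the list was then -0.09, beside -0.07 over all windows.

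AP-1 and NF-kB genes, which are switched on early in inflammation, had a median of 0.07 with 10 of 15 higher and none passing. Jund had 433, 608 and 804 in MI and 351, 539 and 694 in sham (0.23, SE 0.10, 4 of 6, unadjusted p = 0.0205, and 0.0479 with independent zones). Fos (0.07, SE 0.08), Atf3 (0.11, SE 0.08), Rela (0.16, SE 0.09) and Nfkb1 (0.19, SE 0.12) lay within the spread of their arms. With all pairs of the window Jund was at 0.00, and the median of the list was -0.08, beside -0.07 over all windows. Then 2 of 15 members, Fosb (-0.27) and Relb (-0.28), had an unadjusted p under 0.05, beside 15.1% of all windows.

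**Figure D3:**
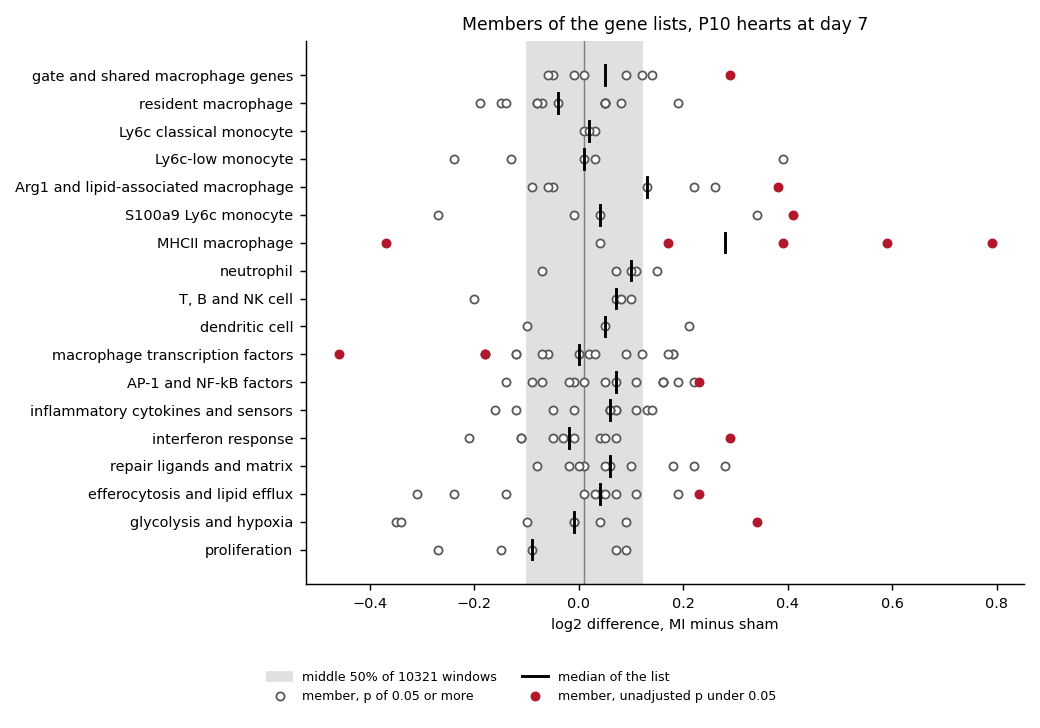
Log2 difference, MI minus sham, of each tested member of 18 gene lists (points), with the median of the list (bar) and the middle 50% of the 10321 windows (grey band). Filled points have an unadjusted p under 0.05, and no member passed after adjustment. The MHC class II list has the highest median, 0.28, and the widest range, -0.37 to 0.79. These are differences of pairs in regions, and with all pairs of the window that median was 0.05.

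Genes of inflammatory cytokines and their sensors had a median of 0.06, with 9 of 13 tested windows higher and no unadjusted p under 0.05. Tnf had 1210, 1410 and 1600 in MI and 1150, 1400 and 1460 in sham (0.06, SE 0.07). Nlrp3, the inflammasome sensor, had 232, 527 and 575 in MI and 331, 488 and 557 in sham (0.06, SE 0.11). Il1b was at -0.16 (SE 0.13), Tlr2 at 0.14 (SE 0.12) and Osm at 0.11 (SE 0.10). Counted over all pairs, Il1b was at -0.38 (unadjusted p = 0.00323) and Il1rn, which did not reach the minimum count in regions, at 0.37 (unadjusted p = 0.0448). They were the 2 of 15 members with an unadjusted p under 0.05, beside 15.1% of all windows. The median of the list was then -0.12, beside -0.07 over all windows. Il6 and Ptgs2 had no pair in a region, and Il6 was at -0.21 with all pairs.

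The interferon list had a median of -0.02, with 4 of 10 higher. Irf1, a factor induced by interferon gamma, had 435, 525 and 631 in MI and 327, 444 and 520.0 in sham (log2 difference 0.29, SE 0.10, 6 of 6, unadjusted p = 0.00431, 0.0171 with independent zones, limma adjusted p = 0.412, and 0.11 with all pairs). Irf7 was at -0.21 (SE 0.21), Cxcl10 at -0.11 (SE 0.15) and the receptor genes Ifnar1 and Ifnar2 at 0.05 (SE 0.08) and -0.01 (SE 0.08). Irf1 was the only 1 of 10 members with an unadjusted p under 0.05, beside 8.41% of all windows. Over all pairs Irf9 (-0.23) was the only 1 of 13, beside 15.1% of all windows. The median of the list was then -0.12, beside -0.07 over all windows.

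Repair ligands and matrix genes were higher in 8 of 10 windows, with a median of 0.06 and none passing. Mmp9, a gelatinase, had 134, 209 and 242 in MI and 128, 164 and 216 in sham (0.28, SE 0.14). Hbegf, an EGF receptor ligand, was at 0.22 (SE 0.19), Tgfb1 at -0.08 (SE 0.08) and Tgfbr2 at 0.06 (SE 0.09). Over all pairs of the window 2 of 15 members, Tgfb1 (-0.29) and Tgfbr1 (-0.25), had an unadjusted p under 0.05, beside 15.1% of all windows. Genes of efferocytosis, the uptake of dead cells, and of lipid efflux were higher in 8 of 11 windows, with a median of 0.04. Abca1, the pump that loads cholesterol onto apolipoprotein A-I, had 510.0, 881 and 918 in MI and 501, 701 and 793 in sham (0.23, SE 0.09, 5 of 6, unadjusted p = 0.0147, 0.0317 with independent zones, limma adjusted p = 0.471, and 0.03 with all pairs). Msr1, a scavenger receptor, was at -0.31 (SE 0.17), Cd300lf at 0.19 (SE 0.11), Lrp1 at 0.11 (SE 0.07) and Stab1 at 0.07 (SE 0.08). Mfge8 had no pair in a region. Over all pairs the median of that list was -0.15, beside -0.07 over all windows, and 4 of 11 had an unadjusted p under 0.05, beside 15.1% of all windows, 1670 lower and 745 higher. All 4 were lower in MI, Msr1 (-0.44), Cd36 (-0.32), Axl (-0.26) and Itgb5 (-0.22).

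Of the glycolysis and hypoxia list, 3 of 8 were higher and the median was -0.01. Ldha, lactate dehydrogenase A, had 134, 190.0 and 294 in MI and 120.0, 144 and 217 in sham (0.34, SE 0.15, 6 of 6, unadjusted p = 0.0236, 0.0575 with independent zones, and 0.12 with all pairs). Hif1a was at -0.35 (SE 0.22), and at 0.12 with all pairs, Bnip3 at -0.34 (SE 0.23), Hk2 at -0.10 (SE 0.10) and Pfkfb3 at 0.09 (SE 0.10). Proliferation genes had a median of -0.09, with Ccnb1 at -0.27 (SE 0.20), Top2a at -0.15 (SE 0.14) and Mcm5 at -0.09 (SE 0.12), or -0.25 with all pairs (unadjusted p = 0.0458).

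T, B and NK cells do not carry F4/80, so the sort should remove them, and neutrophils and most dendritic cells carry little of it. The lists of neutrophils, of T, B and NK cells and of dendritic cells had 5, 4 and 3 members tested. None had an unadjusted p under 0.05, beside 8.41% of all windows. With all pairs of the window 6, 8 and 4 were tested, and 1 had such a p, beside 15.1% of all windows. It was Ncr1 of NK cells (0.67, unadjusted p = 0.0293). The neutrophil list had a median of 0.10 over 5 tested genes, or -0.04 with all pairs, beside -0.07 over all windows. Elane was at 0.15 (SE 0.10), Mpo at 0.11 (SE 0.11) and Csf3r at 0.10 (SE 0.14). The neutrophil list summed to 1070 to 1490 in MI and 925 to 1440 in sham. The T, B and NK cell list had no pair in a region for Cd8a and Gzma, with Lck at 0.10 (SE 0.14) and Cd79a at 0.07 (SE 0.15). It summed to 534 to 856 in MI and 542 to 828 in sham. The sums of both lists overlapped between the arms, and the part of these cells in the results was not tested. The dendritic cell list had a median of 0.05 over 3 tested genes, or -0.01 with all pairs, and no pair in a region for Cd209a. Zbtb46 was at 0.21 (SE 0.16), Flt3 at -0.10 (SE 0.15) and Xcr1 at 0.05 (SE 0.12). The dendritic cell list summed to 510.0 to 776 in MI and 516 to 904 in sham. Pecam1 was at 0.08 (SE 0.09) and Tnni3 at -0.01 (SE 0.10). Of the shared macrophage genes, Itgam, which encodes CD11b, was the only one with an unadjusted p under 0.05, with 251, 448 and 537 in MI and 243, 351 and 482 in sham (0.29, SE 0.12, 5 of 6, unadjusted p = 0.0174, 0.0376 with independent zones, limma adjusted p = 0.478, and 0.15 with all pairs). Over all pairs Adgre1, which encodes F4/80, was the only one (-0.30, unadjusted p = 0.0107, beside -0.05 in regions). Of all windows 8.41% had such a p in regions and 15.1% over all pairs. Csf1r was at 0.01 (SE 0.09), Cx3cr1 at -0.01 (SE 0.08), Fcgr1 at -0.06 (SE 0.11), Cd68 at 0.14 (SE 0.08) and Tyrobp at 0.12 (SE 0.10). The median of the 8 genes was 0.05, or -0.14 with all pairs, beside -0.07 over all windows.

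Zone by zone, with 2 libraries against 2, a single window passed. In the IZ it was Hist1h2br, a histone H2B gene, 1 of 10321 windows (0.00969%). Its level in the IZ was 14.8 and 7.74 in MI and 102 and 88.8 in sham (log2 difference -2.77, SE 0.55, limma adjusted p = 0.0209, 0.016 with independent zones, 0.0171 with limma-trend and 0.266 without the block). The 2 MI IZ libraries held 122836 and 116966 pairs in regions, so the levels of 14.8 and 7.74 stand for very few pairs. The call was lost with all pairs of the window (-1.78, adjusted p = 0.341) and without MI IZ number 2 (0.713), sham IZ number 1 (0.318) or sham IZ number 2 (0.223), and the windows that passed with all pairs were 3 others, higher in MI. In the other zones MI had 64.7 to 89.0 and sham 53.1 to 112, so the low values were those of the 2 IZ libraries of MI hearts. The window lies at chr13:21833743-21837530 with its flanks among other histone genes.

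The zones leaned in different directions. In the IZ 992 windows (9.61%) had an unadjusted p under 0.05, 86 higher and 906 lower in MI, and the median over all windows was -0.17. In the BZ there were 443 (4.29%), 269 higher and 174 lower, with a median of 0.03. In the RZ there were 752 (7.29%), 680 higher and 72 lower, with a median of 0.12. None passed in the BZ or the RZ (0.0% each). Values of the zones together can join unlike zone values. In the IZ, BZ and RZ Msr1 was at -1.71 (SE 0.49), 0.40 (SE 0.29) and -0.32 (SE 0.27). Mef2c was at -0.74 (SE 0.20), -0.09 (SE 0.15) and 0.11 (SE 0.15), and Csf1r at -0.50 (SE 0.19), 0.20 (SE 0.14) and 0.15 (SE 0.14). Wfdc21 was higher in the IZ, at 1.07 (SE 0.47), 0.27 (SE 0.37) and -0.08 (SE 0.32). These genes were picked as examples, and none passed in a zone. The TMM factors, by which library sizes were multiplied, were 1.1 and 1.1 in MI and 0.976 and 0.973 in sham in the IZ. In the BZ they were 0.932 and 0.986 in MI and 0.963 and 1.01 in sham. In the RZ they were 0.909 and 0.994 in MI and 0.981 and 1.09 in sham. A higher factor lowers every level of a library, so the zone medians move with these factors, whose part was not tested. The difference between the IZ and the RZ response had a median of -0.30, an unadjusted p under 0.05 in 1090 windows (10.6%), 47 higher and 1043 lower, and 0 passing (0.0%). With independent zones such windows numbered 990 in the IZ, 442 in the BZ, 756 in the RZ and 1266 for the difference. Without the block they numbered 516, 174, 267 and 1006. Without the MI IZ library numbered 1 the median of the IZ response was 0.02 and 36 windows passed, and without the MI RZ library numbered 1 that of the RZ response was 0.00 and 9 passed, so single libraries moved both shifts. Leaving out the sham IZ library numbered 1 gave a median of -0.05 in the IZ, with 246 higher and 455 lower, and over the 4 IZ libraries left out in turn the median was -0.19 to 0.02. Over the 4 RZ libraries it was 0.00 to 0.16. These balances differed with the way of counting. With all pairs of the 15955 windows then tested, the RZ had 322 with an unadjusted p under 0.05 (2.02%), 159 higher and 163 lower, and a median of 0.02. The IZ had 1703 (10.7%), 472 higher and 1231 lower, with a median of -0.18, and the difference between the IZ and the RZ had 733 (4.59%), 257 higher and 476 lower, with a median of -0.20.

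**Figure D4:**
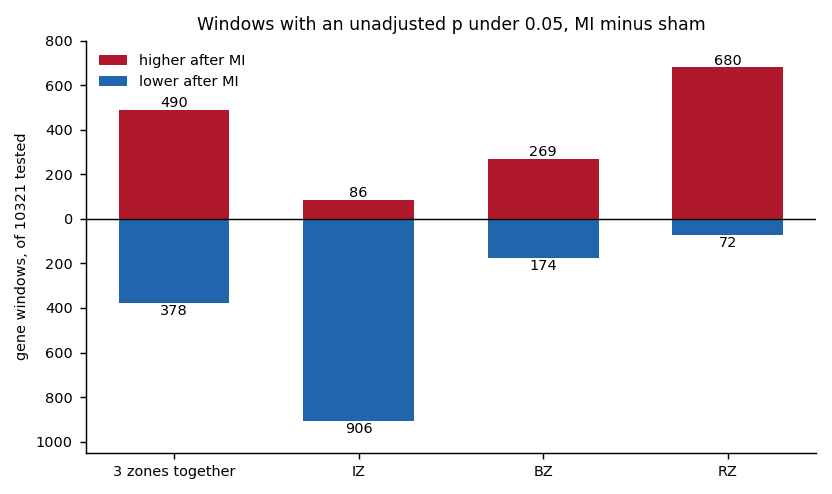
Number of gene windows, of 10321 tested, with an unadjusted p under 0.05 that were higher (red, upward) or lower (blue, downward) in MI, for the 3 zones together and for each zone. Lower windows prevail in the IZ (906 against 86) and higher windows in the RZ (680 against 72), which with all pairs of the window were 159 against 163 in the RZ and 1231 against 472 in the IZ. The balances move with the TMM factors of the libraries, whose part was not tested.

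In the IZ the leading windows higher in MI were Prrt3, with 126 and 170.0 in MI and 54.0 and 31.7 in sham (log2 difference 1.73, SE 0.53, limma adjusted p = 0.294), and Btaf1, which takes the TATA-binding protein off DNA, with 155 and 286 in MI and 90.0 and 95.1 in sham (1.18, SE 0.39). Ap3b1, a subunit of the AP-3 complex that sorts proteins to lysosomes, had 22.2 and 7.74 in MI and 72.0 and 121 in sham (-2.48, SE 0.56, limma adjusted p = 0.116), and with all pairs of the window Ap3b1 was at 0.07 in the IZ. The MI levels of Ap3b1, like those of Hist1h2br, stand for very few pairs. In Prrt3, Btaf1 and Ap3b1 both MI libraries lay on the same side of both sham libraries. In the BZ Abca1 was among the leading windows, with 918 and 915 in MI and 694 and 599 in sham (0.48, SE 0.15), and so was Gm5868, with 132 and 183 in MI and 60.2 and 56.1 in sham (1.29, SE 0.39). Ints13, of the Integrator complex, had 17.6 and 24.7 in MI and 42.5 and 143 in sham there (-1.82, SE 0.57). Insr, the insulin receptor, had 82.1 and 59.3 in MI and 163 and 137 in sham (-1.04, SE 0.34). These pairs of values did not overlap, and no adjusted p in the BZ was under 0.998.

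In the RZ Actn1, which encodes alpha-actinin 1, had 95.2 and 45.3 in MI and 48.6 and 0.0 in sham (log2 difference 2.24, SE 0.54, limma adjusted p = 0.244). Plscr3, a phospholipid scramblase of mitochondria, had 596 and 446 in MI and 374 and 223 in sham (0.75, SE 0.19). Tango2 had 49.6 and 12.9 in MI and 86.0 and 112 in sham (-1.35, SE 0.44), and Zfp58, a zinc finger gene, 55.9 and 0.0 in MI and 44.9 and 55.8 in sham (-1.87, SE 0.63). Actn1 and Zfp58 overlapped between the arms, and the sign of Zfp58 changed without the MI RZ library numbered 2. For the difference between the responses in the IZ and the RZ, Zfp146 (1.35, SE 0.46), Atrnl1 (2.27, SE 0.79), Hist1h2br (-3.01, SE 0.70) and Arid3a (-0.83, SE 0.20) led, none passing.

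The response at day 7 was then set against that at day 3 in P10 hearts. The libraries of day 3 were numbered 2 and 3, and those numbered 3 were sequenced on other flow cells than the libraries of day 7. The fit held 24 libraries, none shared between the days, and 10592 windows were tested. In this fit the day 3 response passed in 435 windows (4.11%), 277 higher and 158 lower in MI, and the day 7 response in 0. Without the replicate block the day 3 response passed in 34 windows (27 higher and 7 lower), with independent zones in 344 (226 and 118), with all pairs in 443 (354 and 89) and with limma-trend in 343, of which 134 were higher and 209 lower, so the balance turned with that fit. The difference between the days passed in 19 windows (0.179%), 14 with a higher and 5 with a lower response at day 7. In all 19 the response had opposite signs on the 2 days, which a choice by the difference favours. Over all windows 54.0% had the same sign on both days. Of the 19 windows 13 passed at day 3 and none at day 7, so a reversal is not shown. The 19 windows lie in 6 stretches of the genome, so neighbours share pairs. With independent zones 13 of the 19 passed, with limma-trend 7, with all pairs of the window 4 and without the replicate block 0. An unadjusted p under 0.05 was found for 1081 windows (10.2%), 639 higher and 442 lower at day 7, and with all pairs for 2173 of 16332 (13.3%), 671 higher and 1502 lower. With independent zones it was found for 953.

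The longest stretch was on chromosome 11, with the windows of Chrnb1, Fgf11, Tmem102, Gm39566, Spem2, Spem1, Nlgn2, Tmem256 and Plscr3. In Fgf11, of the fibroblast growth factor family that stays inside the cell, levels at day 7 were 314, 459 and 622 in MI and 189, 392 and 514 in sham, and at day 3 they were 173, 261 and 312 in MI and 316, 386 and 483 in sham. The response was 0.32 (SE 0.12) at day 7 and -0.59 (SE 0.14) at day 3, a difference of 0.91 (SE 0.18, limma adjusted p = 0.018, 0.0342 with independent zones, 0.0143 with limma-trend, 0.21 with all pairs and 0.978 without the block). The arms were apart at day 3 and overlapped at day 7.

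The formyl peptide receptor genes Fpr1, Fpr2 and Fpr3, through which phagocytes sense bacterial and mitochondrial peptides, formed another stretch. Fpr1 had 248, 381 and 632 in MI and 148, 210.0 and 244 in sham at day 3, and 121, 202 and 253 in MI and 135, 222 and 287 in sham at day 7. Its response was 0.98 (SE 0.15) at day 3 and -0.12 (SE 0.18) at day 7, a difference of -1.10 (SE 0.24, limma adjusted p = 0.0265). Fpr2 and Fpr3 differed by -1.0 and -0.99 (SE 0.22 each, limma adjusted p = 0.0318 each). With all pairs the 3 windows passed, with differences of -1.23, -1.18 and -1.10. With independent zones the adjusted p of limma was 0.0454 for Fpr1 and 0.0501 for Fpr2 and Fpr3, with limma-trend it was 0.0532 and 0.0538, and without the block 0.978, so only Fpr1 passed with independent zones and none of the 3 in the last 2 fits. At day 3 the arms of Fpr1 did not overlap, and at day 7 they did.

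Pilrb2 and Pilrb1 also had a lower response at day 7 than at day 3, and neither passed at day 7 itself. Pilrb1 had 283, 346 and 505 in MI and 198, 229 and 265 in sham at day 3, and 77.4, 195 and 241 in MI and 180.0, 228 and 292 in sham at day 7. Its response was 0.67 (SE 0.15) at day 3 and -0.35 (SE 0.18) at day 7 (difference -1.02, SE 0.23, limma adjusted p = 0.0372). It was 0.0246 with all pairs, 0.0553 with independent zones, 0.0576 with limma-trend and 0.951 without the block. Pilrb2 differed by -1.76 (SE 0.40, limma adjusted p = 0.0351, 0.0505 with all pairs, 0.0545 with independent zones, 0.0848 with limma-trend and 0.812 without the block).

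Wdr25, Gm10972 and the stretch of Nfxl1, Zar1 and Gm5868 went the other way. Wdr25 had a response of 0.97 (SE 0.27) at day 7 and -0.64 (SE 0.23) at day 3 (difference 1.62, SE 0.35). Gm10972 had 0.28 (SE 0.22) and -1.38 (SE 0.28), a difference of 1.66 (SE 0.35). Nfxl1 had 0.75 (SE 0.23) and -0.72 (SE 0.24), a difference of 1.48 (SE 0.33). With independent zones all of these passed (limma adjusted p of 0.0418 to 0.0493), and none did with limma-trend (0.0538 to 0.0549), with all pairs (0.0935 to 0.416) or without the block (0.806 each). Wdr25, Pilrb2 and the Nfxl1 region were also among the leading features of day 7, so their day 7 libraries enter both results.

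**Figure D5:**
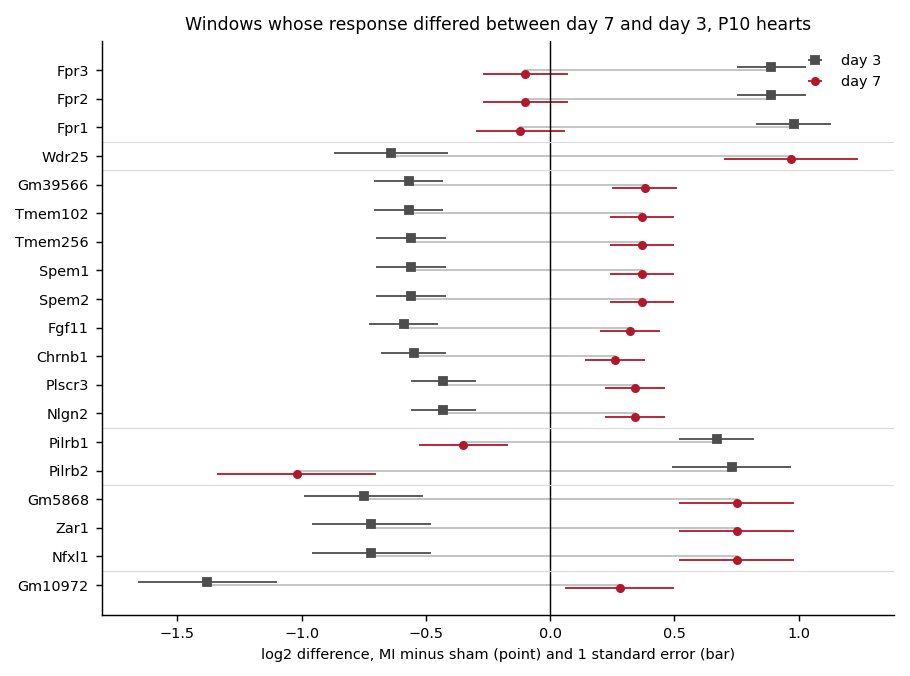
Log2 difference, MI minus sham, at day 3 (grey squares) and day 7 (red circles) for the 19 windows whose response differed between the days, with bars of 1 standard error and lines between genomic stretches. In every window the day 3 point and the day 7 point lie on opposite sides of 0, which a choice by the difference favours, and none passed at day 7.

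The windows that passed at day 3 were chosen by their size there, so their values on the 2 days are a description and nothing is read from the smaller ones at day 7. Over the 277 higher in MI at day 3 the median response was 0.57 at day 3 and 0.05 at day 7, and 181 (65.3%) had the same sign on both days. Over the 158 lower at day 3 the medians were -0.75 and -0.02, and 91 (57.6%) had the same sign, beside 54.0% of all windows. Resident macrophage genes had a median of -0.43 at day 3 and -0.04 at day 7. Of these, 2 of 13 passed at day 3, beside 4.11% of all windows, both lower in MI. Mgl2 had -0.87 (SE 0.23, limma adjusted p = 0.022) at day 3 and -0.07 (SE 0.18) at day 7, and Cbr2 had -0.75 (SE 0.19, limma adjusted p = 0.0141) and 0.18 (SE 0.15). The difference of 0.93 for Cbr2 (SE 0.24) did not pass (adjusted p = 0.124) and was 0.55 with all pairs. The MHC class II list had a median of -0.47 at day 3 and 0.28 at day 7. H2-Aa differed by 1.31 between the days (SE 0.42, limma adjusted p = 0.253, and 0.57 with all pairs) and Ciita, the 1 of 6 members that passed at day 3 with -0.89 (SE 0.20), by 0.51 (SE 0.27, adjusted p = 0.525).

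The windows of Treml4, Plac8, Itgam and Cd9, which passed at day 3, are given with both values. Treml4 had a response of 1.36 (SE 0.22) at day 3 and 0.41 (SE 0.31) at day 7, and Plac8 had 0.63 (SE 0.19) and 0.03 (SE 0.22). Neither difference passed in limma (adjusted p = 0.352 and 0.463). Itgam had 0.57 (SE 0.14) at day 3 and 0.29 (SE 0.15) at day 7, and Cd9 had 0.63 (SE 0.14) and 0.22 (SE 0.16), with adjusted p of 0.69 and 0.518 for the difference. Trem2, Wfdc21, Cebpb, Nfkbia, Abcg1, Cd300lf and Slc2a1 were the other list members that passed at day 3, with 0.30 to 0.88 at day 3 and -0.07 to 0.33 at day 7.

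The response at P10 was also set against that of P1 hearts at day 7, whose 12 libraries were cut and numbered alike. The depth of the P1 libraries was uneven. The P1 sham IZ library numbered 1 held 48044 distinct pairs. Those numbered 2 held 72874 to 108390 in P1 MI and 327646 to 469551 in P1 sham. Of the P1 libraries numbered 1, the MI BZ and RZ libraries shared only part of their flow cells with sham, so surgery and sequencing run are not fully separate there. Of 9604 windows 0 (0.0%) passed in limma, and 90 (0.937%) had an unadjusted p under 0.05, 84 higher and 6 lower, or 322 with independent zones. With all pairs of the window 0 of 15412 passed and 1242 (8.06%) had such a p, 665 higher and 577 lower. The leading windows were Acsbg2, an acyl-CoA synthetase, with 0.33 (SE 0.41) at P10 and -1.59 (SE 0.49) at P1, Med17, of the Mediator complex, with 0.33 (SE 0.38) and -1.57 (SE 0.50), Lkaaear1, with -0.51 (SE 0.29) and 0.51 (SE 0.38), and Dffa, the inhibitor of the apoptotic DNase, with -0.37 (SE 0.37) and 0.90 (SE 0.46).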

How the data were processed

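H3K27ac CoBATCH libraries were analysed from lists of aligned reads. Per the labels and the methods, the authors trimmed adapters (Cutadapt), aligned to mm10 (Bowtie2), removed reads of low mapping quality (Samtools) and duplicates (Picard), and kept cells by read number. MACS2 2.2.7.1 and deepTools are also named in the submitters' processing notes. The deposited files give each read its coordinates, strand and a mapping quality score, which was not used as a measurement, and no cell of origin, so levels are those of whole libraries. The authors' peaks and clusters were not used here.

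Repeated lines were dropped, the mates of a read name made up 1 pair, counted at its midpoint. Regions were 500 bp bins with at least 4 times the mean of covered bins over all 42 libraries, groups weighted equally, merged within 1000 bp, which gave 23079 regions over 92.9 Mb. Gene windows were the 21911 protein-coding genes of the GRCm38 annotation with 50 kb before and 30 kb behind. Windows with a mean of 10 pairs and regions with a mean of 3 were tested with limma 3.58.1 (voom, two-sided, R 4.3.3, statmod 1.5.0). Library size was pairs in regions times a TMM factor computed for these libraries (trims of 30% and 5%). Zone, replicate number and surgery were fixed terms, and the libraries of 1 arm and number were a random block (duplicateCorrelation). They were taken as 1 pool of hearts because each heart was cut into all 3 zones, though no source ties the numbers to hearts. P-values were adjusted by Benjamini-Hochberg over every window or region tested, with 0.05 as threshold. For the zones, 1 fit held the 6 means of zone and surgery. For days and ages, 24 libraries entered, with the terms within day or age. On data simulated without shared pools, the fit with a negative pool correlation made more wrong calls than that with zones as independent libraries. Values of the latter are therefore given beside the counts of small p-values over all windows or regions. They are also given beside part of the named windows, and not beside most of those named for single zones. Depth was 244982 to 1008148 pairs per library. PCR reads carry no molecular identifiers, and p-values measure the spread between these libraries.

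In the P10 libraries the numbers pair the arms as sequencing batches, since MI and sham libraries of a number shared flow cells per the read names. In the P1 libraries of day 7 this held only in part. Between zones and arms of the P10 libraries of day 7, the differences of number 1 from number 2 correlated at 0.0552 to 0.23 across windows.

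Named were the gate genes, of each list up to 3 members with the smallest unadjusted p and up to 2 with the highest level, up to 6 windows and 5 regions per direction with the smallest p, the same sign in at least 5 of 6 matched comparisons and in all 3 zones, none of them overlapping another, and up to 2 windows per direction of the other contrasts. Names of list members outside this rule were chosen after their values were seen. Results of 2 list members are not reported here. The comparison, members and lists were chosen with earlier results of these data known. Alternatives covered the block, pools, scaling, filters, regions, windows, pairing of mates and single libraries. Python 3.11.15, pandas 2.3.3, NumPy 2.4.6 and matplotlib 3.10.9 were used for counting and plots.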

Additional observations from a re-analysis of the deposited data

Results flagged for a closer look

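In 13 of 210 arms examined (6.19%) the highest or lowest of 6 libraries stood apart from the rest by Dixon's criterion, where chance gives about 1 in 20. The MI BZ library numbered 2 was high for Tyrobp (742). The sham BZ library numbered 2 was high for Cxcl2 (225) and low for Pecam1 (611), Tnf (1150) and Tgfb1 (749), and the sham BZ library numbered 1 was high for Irf7 (131). The MI IZ library numbered 2 was low for Cd74 (193), Nlrp3 (232) and Prpf38a (0.0), and the sham IZ library numbered 2 was high for Csf3r (273) and Tmem154 (178). The region by Entpd5 had its highest MI level in the IZ library numbered 1 (22.2) and its highest sham level in the IZ library numbered 2 (63.4). These values are levels in CPM of pairs in regions.

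The response to MI differed between day 7 and day 3 in 19 windows by the test of the difference in limma. On chromosome 11 the log2 differences, day 7 minus day 3, were 0.96 for Gm39566, 0.94 for Tmem102, 0.91 for Fgf11, 0.93 for Spem2, Spem1 and Tmem256, 0.81 for Chrnb1, 0.78 for Plscr3 and 0.76 for Nlgn2. Gm10972 had 1.66, Wdr25 had 1.62, Gm5868 had 1.5, and Nfxl1 and Zar1 had 1.48 each. Lower responses at day 7 were found for Fpr1 (-1.10), Fpr2 (-1.0), Fpr3 (-0.99), Pilrb2 (-1.76) and Pilrb1 (-1.02).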

How the results depend on the processing

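Of 90 counts recomputed under alternatives, 64 stayed within 1.5 times the reported one and 26 moved. Of 2931 values of 140 named results, 57 lost an adjusted p under 0.05 (limma), 44 gained one and 25 changed sign from a reported value more than 1 standard error from 0. A further 122, reported within 1 standard error of 0 (at most 0.11 in size), also changed sign, 24 with all distinct pairs, 22 with all pairs of the window and 76 under other alternatives, and are not listed. The cause of none of these changes was tested. For gene windows, scaling to all distinct pairs gave 217 calls, library quality weights 5 and all pairs of the window 3. For regions, that scaling gave 1 call and no filter on low counts 19. In the IZ limma-trend gave 3 calls, all lower, and all pairs 3, all higher, without the reported one (Hist1h2br). The difference between days gave 7 with limma-trend and 45 with all pairs, 16 higher and 29 lower. With regions at 6 times the mean, the share of pairs in regions differed by -5.32 points (exact p = 0.0312, the smallest possible).

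Without the replicate block, calls numbered 0 for windows, 0 for regions, 0 in the IZ and 0 for the difference between days, which had 19 with it. The day 3 response had 34 calls in place of 435. In the BZ, the RZ, the IZ minus RZ and the P10 minus P1 comparisons the count was 0 in both fits.

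Leaving out single libraries gave 0 to 10 calls for windows (highest without sham BZ number 1), 0 to 11 for regions (without sham IZ number 1), 0 to 36 in the IZ (without MI IZ number 1), 0 to 2 in the BZ (without sham BZ number 1) and 0 to 9 in the RZ (without MI or sham RZ number 1). In these zone fits a lone library is assumed to vary like the others.

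From a reported value more than 1 standard error from 0, signs changed with all distinct pairs for Cd68 (-0.02), Tyrobp (-0.05), H2-DMa (0.00), Elane (-0.01), Rela (0.00), Atf3 (-0.05), Tlr2 (-0.01), Osm (-0.05) and Lrp1 (-0.05). They changed with all pairs of the window for Cd68 (-0.06), Tyrobp (-0.06), Igf1 (-0.05), H2-DMa (-0.03), Elane (-0.02), Rela (-0.01), Atf3 (-0.08), Tlr2 (-0.04), Lrp1 (-0.07), Hif1a (0.12) and, in the IZ, Ap3b1 (0.07). Cd163 was at 0.07 with the stricter regions. Leaving out single libraries gave -0.20 to 0.02 for Itgal (highest without MI BZ number 2), 0.00 to 0.35 for Zbtb46 (lowest without sham RZ number 2), -0.40 to 0.09 for Ccnb1 (highest without MI RZ number 1) and -4.32 to 0.27 for Zfp58, RZ (highest without MI RZ number 2).

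The minimum mean of 10 pairs in regions left 10321 of 21911 gene windows to be tested. With all pairs of the window 15955 were tested.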
